A study of Drosophila melanogaster with 249 samples.

Results

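Df(1)ED6443 is a DrosDel deficiency of the Drosophila melanogaster X chromosome, and flies with 1 deficiency chromosome and 1 intact X are hemizygous for the genes it removes. The members are the 6 analysed libraries labelled Df(1)ED6443, of 249 samples in the series and 235 analysed, with 3 libraries in each of 2 groups. Each library was made from poly-A+ RNA of a pool of 10 heads of flies aged 5 d. XX flies were females of genotype Df(1)ED6443/w1118, the daughters of Df(1)ED6443/FM7h mothers and w1118/Y fathers. The tra2 XX flies had the same pair of X chromosomes and carried Df(2R)trix over the allele tra2B, so that they lacked tra2 function and were thereby transformed from females into somatic males. Every tra2 XX library of the series carried the same tra2 alleles, so that background was shared by both sides of the comparison. The reference was every other analysed library of the same group. In XX it held 94 libraries of 32 lines, with 53 of 18 other X deficiency lines, 33 of 11 deficiency lines of chromosome arm 3L and 8 of 3 lines with no deficiency. In tra2 XX it held 93 libraries of 31 lines, with 54 of 18 X deficiency lines, 33 of 11 3L lines and 6 of 2 lines with no deficiency. The lines with no deficiency were w1118, w1118/w+ and the strain OreR in XX. In tra2 XX they were w1118 and w1118/w+, without OreR. Each library carrying another deficiency has reduced gene dose elsewhere, and each line is 1 stock, so a difference of Df(1)ED6443/+ from the other lines can belong to the deletion or to the line and these cannot be told apart.

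In flies with 1 copy of a stretch of the genome, most genes of that stretch make less mRNA, and a gene whose output follows its copy number falls to 1 copy's worth. Single genes depart from this where feedback, regulators or neighbouring promoters adjust transcription or mRNA decay. Genes whose protein works in a complex, such as ribosomal proteins, are often the ones for which a single copy gives a visible phenotype in flies. Among the genes measured below, Rbf encodes the fly retinoblastoma-family protein, which binds E2F transcription factors and restrains genes used for DNA replication.

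The XX Df(1)ED6443/+ libraries were shallower than most of their reference. They held 4154121 to 5144792 reads on genes against a median of 8998431 (range 3089103 to 18679735), and the tra2 XX Df(1)ED6443/+ libraries held 6973149 to 8317403 against a median of 5631335 (range 667146 to 13306476). The 3 XX libraries also stood apart from many others in how their values related to transcript length. Spearman's rho across genes between the log2 ratio to the group median and exonic length was -0.46, -0.59 and -0.44, whereas the other XX libraries ranged from -0.78 to 0.62 with a median of 0.06. In tra2 XX the values were 0.31, 0.49 and -0.59. Counts of XX calls are therefore also given with this relation as a covariate, an alternative chosen after the data were seen. Replicate 2 of the tra2 XX group went against its label at the yolk protein genes, which females express in fat body. It held 8072 normalized read counts of Yp1 against 1.68 and 3.47 in the other replicates and a median of 15 in the other tra2 XX lines (highest 9656). Counts of tra2 XX calls are also given without it. The tra2 transcript itself was at 91.9, 71.0 and 77.4 in XX and at 27.7, 45.4 and 32.4 in tra2 XX, and the groups did not overlap. White was at 527 to 603 in the XX and at 1867 to 3699 in the tra2 XX libraries, and the dosage compensation RNAs roX1 and roX2 read at most 20.9 and 5.33. Head markers were present in all 6 libraries (4 neuronal, 4 photoreceptor, 3 glial and 4 fat body genes), while the summed ovary genes reached 14.5 and the accessory gland and testis genes 3.63 normalized read counts.

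The deleted stretch was read from the data as a run of neighbouring X genes. Genes were ordered along the X, and the stretch with the most lowered ratios was located in 1 group and measured in the other, so that the values of a group did not choose its own run. Normalized read counts are reads divided by 1 size factor per library, and the ratio is the Df(1)ED6443/+ mean (n = 3) divided by the median of all other libraries in the group. A ratio was given only where that median was above 6. Both groups located nearly the same run, from Hmt4-20 to CG11638 (45 genes) in XX and from SkpA to CG11638 (44 genes) in tra2 XX. In each group 26 of its genes were above the cut-off.

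Across the run, expression fell to the level of 1 copy in both groups. The median log2 ratio was -1.0 in XX (interquartile range -1.53 to -0.66) and -1.01 in tra2 XX (-1.12 to -0.85), a ratio of 0.50 in each. All 26 genes were below the reference in XX, where 48.6% of all genes were, and 24 of 26 in tra2 XX, where 49.6% of all genes were. The spread of the run among genes was wider in XX. By library, the median of the run was -1.05, -0.92 and -0.99 in XX (SD 0.068, n = 3) and -1.01, -1.06 and -0.93 in tra2 XX (SD 0.065, n = 3). The other libraries ranged from -0.24 to 0.22 in XX and from -0.19 to 0.14 in tra2 XX, so no other library came near. The remaining X genes had a median of -0.05 in XX (1497 genes) and -0.01 in tra2 XX (1481 genes). A log2 ratio under -0.5 was found for 24 of the 26 run genes in each group, against 20.0% of all genes in XX and 1.22% in tra2 XX, so this count separated the run far less sharply in XX. Of the run genes, 19 in XX and 22 in tra2 XX had the lowest mean of all lines, against 3.32% and 0.584% of all genes.

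**Figure D1:**
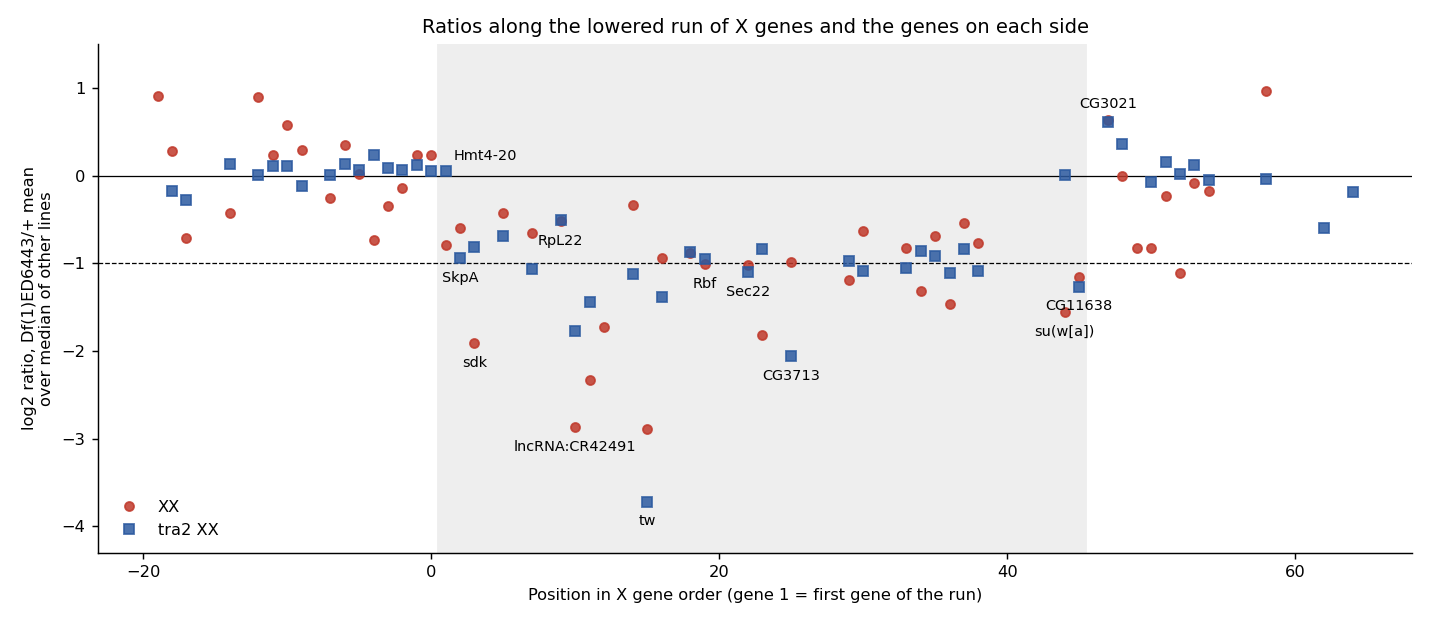
Log2 ratio of Df(1)ED6443/+ over the other lines (y axis) for X genes in chromosomal order (x axis, position counted from the first gene of the run), for XX (red circles) and tra2 XX (blue squares). Points are genes above the cut-off of 6 normalized read counts, the grey span marks the run and the dashed line the value of 1 copy, and the medians of the run were -1.0 and -1.01. Both groups drop within the grey span, and the flanking genes scatter more in XX than in tra2 XX.

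The ends of the run were sharper in tra2 XX, where the flanking genes lay near the reference, than in XX, where they scattered. The expressed genes before it had a median log2 ratio of 0.23 in XX (16 genes) and 0.06 in tra2 XX (15 genes), and those after it -0.18 (9 genes) and -0.01 (10 genes). Roc1a, the RING subunit of SCF ubiquitin ligases, lay before the run at 0.23 and 0.05. The first end differed between the groups by Hmt4-20, a histone H4 lysine 20 methyltransferase. Its normalized read counts were 630, 547 and 635 in XX against 402 to 1705 (median 1042), and 954, 975 and 559 in tra2 XX against 285 to 1241 (median 800). Both groups overlapped their references. The log2 ratio was -0.79 in XX, where edgeR's quasi-likelihood test did not call it (adjusted p = 0.0614), and 0.05 in tra2 XX (adjusted p = 1), with a 95% interval of the fitted log2 fold change of -0.36 to 0.43. With the length relation as a covariate the XX value was -0.20.

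Per gene, the quasi-likelihood test on raw read counts could be made for 27 run genes in each group. It called 18 lower in XX (66.7%, where 6.61% of all genes tested were called lower) and 18 lower in tra2 XX (0.188% of all genes), and none higher. The calls of both groups shared 14 genes, where 0.147% of all genes tested in both were called lower in both. These were SkpA, sdk, CG5273, lncRNA:CR42491, tw, CG13360, Rbf, Sec22, Lztr1, CG32815, TRAM, CG3704, CG3703 and CG11638. The shares of all genes include the run genes themselves. Outside the run, 673 genes were called lower in XX, 0 in tra2 XX and 0 in both. With libraries summed by line, so that 1 line was set against the spread among lines, 7 genes passed in XX (0.204% of all genes) and 10 in tra2 XX (0.0945%), and 5 passed in both: tw, Rbf, Sec22, Lztr1 and CG11638. With the length covariate 16 passed in both. Without replicate 1, 2 or 3, 12, 14 and 8 genes of the run were called lower in XX and 12, 12 and 13 in tra2 XX, each of them also called with all 3. None of the 27 genes had a different change in the 2 groups by the interaction test.

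Of the cell cycle and ubiquitin genes in the run, Rbf was called in both groups under every alternative tried for it. It read 150, 126 and 170 in XX against 173 to 526 in the other libraries (median 300.3), and 139, 149 and 142 in tra2 XX against 214 to 375 (median 276). All 6 libraries lay below every reference library of their group. The log2 fold change was -1.0 (adjusted p = 0.000151, SE 0.18) in XX and -0.95 (adjusted p = 2.15e-12, SE 0.10) in tra2 XX. SkpA, the adaptor subunit of SCF ubiquitin ligases, read 562, 630 and 715 in XX against 717 to 1412 (median 967), and 511, 458 and 602 in tra2 XX against 866 to 1314 (median 1001). It too lay below all other libraries in both groups, at log2 fold changes of -0.61 (adjusted p = 0.00469, SE 0.14) and -0.98 (adjusted p = 7.96e-11, SE 0.11). The 95% interval in XX, -0.89 to -0.33, lay above the value of 1 copy. The XX call of SkpA was lost without XX replicate 1 or 3. The mus81 gene, for a DNA endonuclease that acts on branched structures, was not called in either group, with 8 raw reads in the XX and 16 in the tra2 XX libraries and log2 ratios of -1.46 and -1.11.

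**Figure D2:**
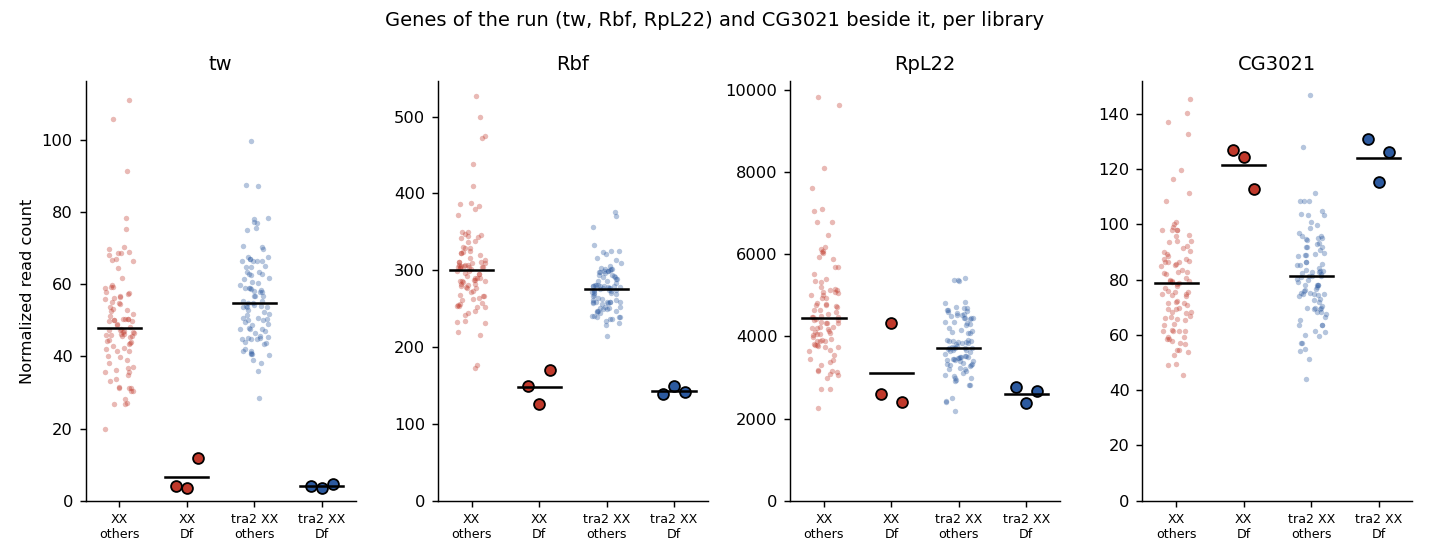
Normalized read counts (y axis) of tw, Rbf, RpL22 and CG3021 in each Df(1)ED6443/+ library (large outlined points, bar at the mean) and each other library (small pale points, bar at the median), for XX (red) and tra2 XX (blue). The tw and Rbf points of Df(1)ED6443/+ lie below every other library of their group, RpL22 overlaps the others, and CG3021, beyond the run, lies near the top.

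The run gene with the lowest ratio was tw (twisted), which encodes a protein O-mannosyltransferase of the endoplasmic reticulum. It read 4.05, 3.55 and 11.8 in XX against 19.8 to 111 (median 47.9), and 4.2, 3.63 and 4.62 in tra2 XX against 28.4 to 99.7 (median 54.7). No other library in either group was as low. The ratio was 0.13 in XX and 0.08 in tra2 XX, with log2 fold changes of -2.92 (adjusted p = 2.1e-07, SE 0.39) and -3.73 (adjusted p = 4.26e-20, SE 0.28). The 95% intervals, -3.68 to -2.15 and -4.28 to -3.18, lay below the value of 1 copy. These values rest on 12 raw reads in XX and 13 in tra2 XX. On the FPKM scale the log2 ratios were -3.11 and -3.78. The other fly protein O-mannosyltransferase gene, rt (rotated abdomen), which acts together with tw and lies outside the run, had ratios of 0.94 and 0.90. CG13360, which overlaps tw on the opposite strand, was at ratios of 0.52 and 0.38. Reads of the overlap cannot be assigned to either gene with certainty, and how the counting treated them is not given in the sources used here.

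Of the genes of the secretory route, Sec22, a SNARE of transport between endoplasmic reticulum and Golgi, read 272, 220 and 232 in XX against 362 to 713 (median 488). In tra2 XX it read 234, 247 and 191 against 271 to 593 (median 481). All 6 libraries lay below their references, at log2 fold changes of -1.0 (adjusted p = 1.3e-06, SE 0.14) and -1.08 (adjusted p = 5.59e-11, SE 0.12). TRAM, a protein of the translocon through which nascent chains enter the endoplasmic reticulum, also lay below all references, with ratios of 0.40 and 0.55 and adjusted p-values of 0.00184 and 0.00163. The TRAM call was lost without XX replicate 3 in XX and without replicate 2 or 3 in tra2 XX.

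Among genes for adhesion, signalling and transcription, sdk and Lztr1 were called in both groups. The sdk gene (sidekick, an immunoglobulin-superfamily adhesion protein) read 150, 101 and 120 in XX against 153 to 1113 (median 464), and 226, 213 and 104 in tra2 XX against 170 to 540 (median 318). No XX reference library was as low, whereas 7 of 93 tra2 XX reference libraries reached the highest Df(1)ED6443/+ value. The log2 fold changes were -1.81 (adjusted p = 0.00223, SE 0.39) and -0.84 (adjusted p = 0.0312, SE 0.20), and -1.12 and -0.93 with the length covariate. The call of sdk was lost without XX replicate 3, and without any 1 of the tra2 XX replicates. The frizzled-family receptor gene fz3 was at a ratio of 0.79 in XX (39.2, 40.8 and 62.3 against a median of 59.9), which overlapped the reference and was not called (adjusted p = 0.258). In tra2 XX fz3 was at 0.46 (34.4, 24.5 and 33.5 against 36.2 to 111.3), below all other libraries (adjusted p = 8.73e-06, and 0.00922 without replicate 2). The difference between its changes, -0.79 (SE 0.27), did not pass the interaction test (adjusted p = 0.124). Lztr1, a BTB-kelch adaptor of cullin ubiquitin ligases, lay below all other libraries in both groups, with ratios of 0.44 and 0.51 and adjusted p-values of 6.15e-06 and 8.89e-09. MED22, a subunit of the Mediator complex, had ratios of 0.64 (adjusted p = 0.0635) and 0.47 (adjusted p = 0.00969), a call lost without tra2 XX replicate 1 or 2 (adjusted p = 0.258 and 0.528).

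RpL22, for a protein of the large ribosomal subunit, was among the abundant genes of the run and was not called in either group. It read 2591, 4324 and 2405 in XX against 2247 to 9835 (median 4443), and 2772, 2374 and 2665 in tra2 XX against 2188 to 5424 (median 3720). The Df(1)ED6443/+ values overlapped 42 of 94 and 4 of 93 reference libraries. The ratio was 0.70 in each group, with fitted log2 fold changes of -0.57 (95% interval -1.06 to -0.08, adjusted p = 0.0931) and -0.56 (-0.89 to -0.23, adjusted p = 0.3). The interval in tra2 XX lay above the value of 1 copy, and that in XX reached it. With the length covariate RpL22 was called in XX (log2 fold change -0.86, adjusted p = 0.0131) and not in tra2 XX (-0.53, adjusted p = 0.187). The paralog RpL22-like had no read in any of the 6 libraries. RpL22 overlaps lncRNA:CR42491 and a pair of snoRNA genes on the same strand. The snoRNA gene snoRNA:Psi28S-2179 was not called, with 0, 5.33 and 1.68 in XX against a median of 7.74 (ratio 0.30, adjusted p = 0.065) and a reference under the cut-off in tra2 XX. CR42491 read 17.6, 17.8 and 16.8 in XX against 33.4 to 254 (median 128), and 20.1, 16.3 and 16.2 in tra2 XX against 26.0 to 183 (median 59.7). It lay below all other libraries, at log2 fold changes of -2.87 (adjusted p = 6.27e-06, SE 0.45) and -1.92 (adjusted p = 0.00699, SE 0.42), with both 95% intervals below the value of 1 copy. The tra2 XX call of CR42491 was lost without any 1 of its replicates. How reads in the overlap were split between these genes is not given in the sources used here.

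The run ended at su(w[a]) and CG11638, which overlap. CG11638 was called in both groups under every alternative tried for it, with 145, 72.8 and 135 in XX against 98.9 to 343 (median 263), and 121, 112 and 119 in tra2 XX against 123 to 383 (median 283). In XX 2 of 94 reference libraries reached the Df(1)ED6443/+ range, and in tra2 XX none did. The log2 fold changes were -1.13 (adjusted p = 6.27e-06, SE 0.18) and -1.28 (adjusted p = 8.42e-12, SE 0.14). su(w[a]), an RNA-binding regulator of splicing, read 637, 613 and 741 in XX against 352 to 2944 (median 1955), and 729, 733 and 578 in tra2 XX against 99.7 to 2300 (median 674). Its values were alike in the 6 libraries, and it was the reference median that differed between the groups. The ratio was 0.34 in XX (adjusted p = 0.0398, and 0.232 with the length covariate) and 1.01 in tra2 XX (adjusted p = 1), and the interaction was not called (adjusted p = 0.224).

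Among the remaining expressed genes of the run, most of which are known by CG numbers only, the log2 ratios in XX and tra2 XX were -0.43 and -0.69 for CG5254, -0.65 and -1.07 for CG5273 and -0.88 and -0.87 for CG16989. They were -1.82 and -0.84 for CG43867, -0.99 and -2.06 for CG3713, -0.82 and -1.05 for CG32815 and -0.69 and -0.92 for CG3704. CG3703 was at -0.54 and -0.84, CG3699 at -0.77 and -1.09, and snoRNA:Psi18S-531 at -2.33 and -1.44. All were negative in both groups. The calls of CG5273, CG3704 and CG3703 in XX were lost without any 1 XX replicate, CG32815 and snoRNA:Psi18S-531 in XX without replicate 3, CG16989 in XX without replicate 1 or 3, su(w[a]) in XX without any 1, and CG5273 in tra2 XX without replicate 1 or 2. The tra2 XX call of CG5254 was lost without any 1 replicate and that of CG3713 without replicate 1 or 3. The 95% interval of the fitted change held the value of 1 copy for 18 of 27 genes in XX and 20 of 27 in tra2 XX. It lay wholly below for sdk, lncRNA:CR42491, snoRNA:Psi18S-531, tw and CG43867 in XX and for lncRNA:CR42491, tw, CG3713 and CG11638 in tra2 XX. It lay wholly above for SkpA, CG5254, fz3 and CG3703 in XX and for Hmt4-20, RpL22 and su(w[a]) in tra2 XX. Hmt4-20 was outside the run as located in tra2 XX, and the annotated span of su(w[a]) reaches past the run to CG3021, Cdc45, Rpp21 and CG14630. Whether the deletion removes either of these end genes was not tested, so their values need not be those of hemizygous genes. With the length covariate the XX interval held the value of 1 copy for sdk (-1.55 to -0.70), CG43867 (-1.46 to -0.82) and CG5254 (-1.16 to -0.49). The XX interval with the covariate lay wholly below for TRAM (-2.09 to -1.04) and wholly above for Hmt4-20 (-0.51 to 0.10). A further 18 genes of the run were under the cut-off in both groups, 9 of them with no read in any Df(1)ED6443/+ library. Of the 45 genes, 31 overlap another entry of the annotation by their whole spans, transposon insertions included, and such spans need not share exons.

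The next expressed gene beyond the run, CG3021, was higher in Df(1)ED6443/+. It read 127, 124 and 113 in XX against 45.6 to 145 (median 78.6), and 131, 115 and 126 in tra2 XX against 43.9 to 147 (median 81.4). Its line mean was the highest of all lines in both groups (as for 3.03% of all genes in XX and 0.616% in tra2 XX), above 32 of 32 and 31 of 31 other lines, although 6 and 2 single reference libraries reached the lowest Df(1)ED6443/+ value. The ratio was 1.54 in XX and 1.52 in tra2 XX. The log2 fold change was 0.64 (adjusted p = 0.0247, SE 0.19) in XX and 0.61 (adjusted p = 0.052, SE 0.15) in tra2 XX, which missed the threshold. Over 12 alternatives the adjusted p ranged from 3.51e-05 to 0.598 in XX, where 5 passed, and from 0.00101 to 0.835 in tra2 XX, where 7 passed. The XX call was lost without any 1 of its replicates and with the length covariate (log2 0.39, adjusted p = 0.18). The annotation places CG3021 within the span of su(w[a]), so reads cannot be assigned with certainty.

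Elsewhere in the genome, no gene was called in the same direction in both groups by edgeR at an adjusted p under 0.05, of 9483 genes outside the run tested in both. At an unadjusted p under 0.05, 8 genes were higher in both, 9 were lower in both and 10 moved in opposite directions. DESeq2 called 1 gene in both groups, CG3021, as did edgeR with RLE size factors or a replicate block. The count depended on the reference. Against the libraries with no deficiency alone (8 in XX, 6 in tra2 XX), 602 genes were called higher and 665 lower in both groups. These were of 9261 genes tested in both, of which a further 98 were called in opposite directions. In XX alone 780 genes were called higher (7.46% of all genes tested) and 673 lower of 10430 outside the run, and in tra2 XX alone 4 were called higher (0.0419%) and 0 lower of 9529, where 151 had an unadjusted p under 0.05. The XX counts were 105 higher (1.00%) and 48 lower with the length covariate, 3 and 17 with libraries summed by line, 47 and 15 without replicate 1, 240 and 77 without replicate 2, and 4 and 1 without replicate 3. Against libraries with no deficiency they rose to 2302 and 2397 of 9517 tested, and those of tra2 XX to 1201 and 1187 of 9402. Calls were thus common in each group with that reference. Against other X deficiency libraries the counts were 58 and 23 in XX and 6 and 1 in tra2 XX. The XX genes called higher had a median exonic length of 1652 bases, those called lower 4645, and all tested 2045. The XX calls thus differed in length by direction. The part of the length relation of the 3 XX libraries in these calls was not tested beyond the covariate, and that of their depth was not tested. The change itself differed between the groups for 55 of 10423 genes (0.528%), none of them in the run, and for 0, 6 and 0 genes without replicate 1, 2 or 3 of both groups.

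**Figure D3:**
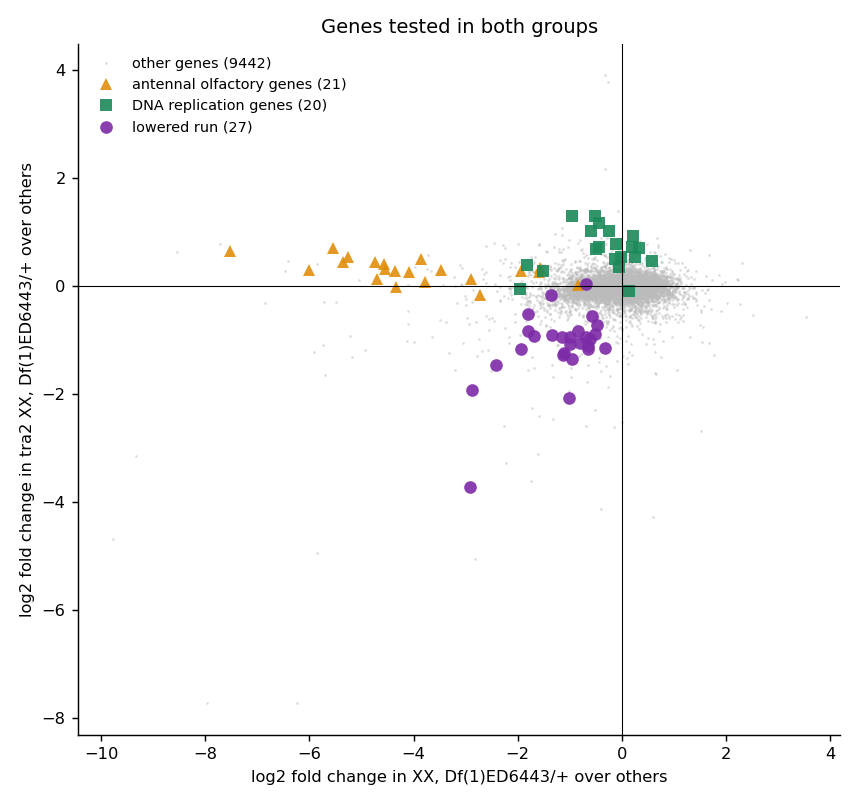
Fitted log2 fold change of Df(1)ED6443/+ over the other lines in XX (x axis) and tra2 XX (y axis) for genes tested in both groups, with run genes (purple), antennal genes (orange), DNA replication genes (green) and other genes (grey) marked. Run genes lie low on both axes, antennal genes are low in XX only, and outside the run no gene was called in both groups.

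The 4 genes called in tra2 XX outside the run all serve DNA replication. RnrS encodes the small subunit of ribonucleotide reductase, Mcm2 and Mcm7 are subunits of the replicative helicase, and RecQ4 is a helicase needed to start replication. RnrS read 113, 103 and 150 in tra2 XX against 29.1 to 104 (median 65.3), and Mcm2 read 45.3, 52.6 and 69.4 against 8.16 to 52.9 (median 26.5). Mcm7 read 45.3, 39.9 and 67.1 against 4.44 to 46.0 (median 19.8), and RecQ4 35.3, 33.6 and 25.4 against 4.79 to 28.5 (median 14). Each had the highest mean of all lines, and 1 or 2 single reference libraries of 93 reached the lowest Df(1)ED6443/+ value of each. The log2 fold changes were 0.92 (adjusted p = 0.00104, SE 0.18) for RnrS, 1.02 (adjusted p = 0.00759, SE 0.22) for Mcm2, 1.30 (adjusted p = 0.00163, SE 0.26) for Mcm7 and 1.16 (adjusted p = 0.00311, SE 0.24) for RecQ4. With libraries summed by line, RnrS passed (adjusted p = 0.02) and the others did not. Without replicate 1 the calls were Mcm2, Mcm7 and RnrS, without replicate 2 (the library with yolk protein reads) Mcm7 and RnrS, and without replicate 3 RecQ4 only. With the length covariate 8 genes were called higher in tra2 XX (0.0837%), these 4 with CG3021 and the 3 yolk protein genes.

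A list of 24 genes for the replication machinery, drawn up after these 4 had been seen, held 22 genes with values here. In tra2 XX 4 of 20 tested were called higher (0.0419% of all genes), the 4 the list was built around, and 18 were above 0, with a median log2 fold change of 0.70 against -0.02 over all genes tested. Since the list was written after the calls were seen, this is a description. The summed normalized read counts of the list were 964, 856 and 1101 in the tra2 XX libraries against 494 to 834 (median 619.9) in the other lines, so no other tra2 XX library reached them. In XX 0 of 22 were called and 7 were above 0, with a median fitted change of -0.19 against -0.04 over all genes. The XX sums were 884, 918 and 769 against 470 to 6744 (median 709). Within XX some reference libraries held far more of these transcripts, up to 407 for RnrS, 297 for Mcm2, 692 for Mcm7 and 205 for RecQ4. As a ratio to the reference median, which such libraries hardly move, the log2 values in XX were 0.69, 0.59, 0.73 and 0.16, whereas the fitted values, which compare means, were 0.21, -0.24, -0.51 and -0.44 (adjusted p 0.824, 0.85, 0.76 and 0.714). No gene of the list passed the interaction test. The direction of the replication genes in XX therefore depended on the measure.

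**Figure D4:**
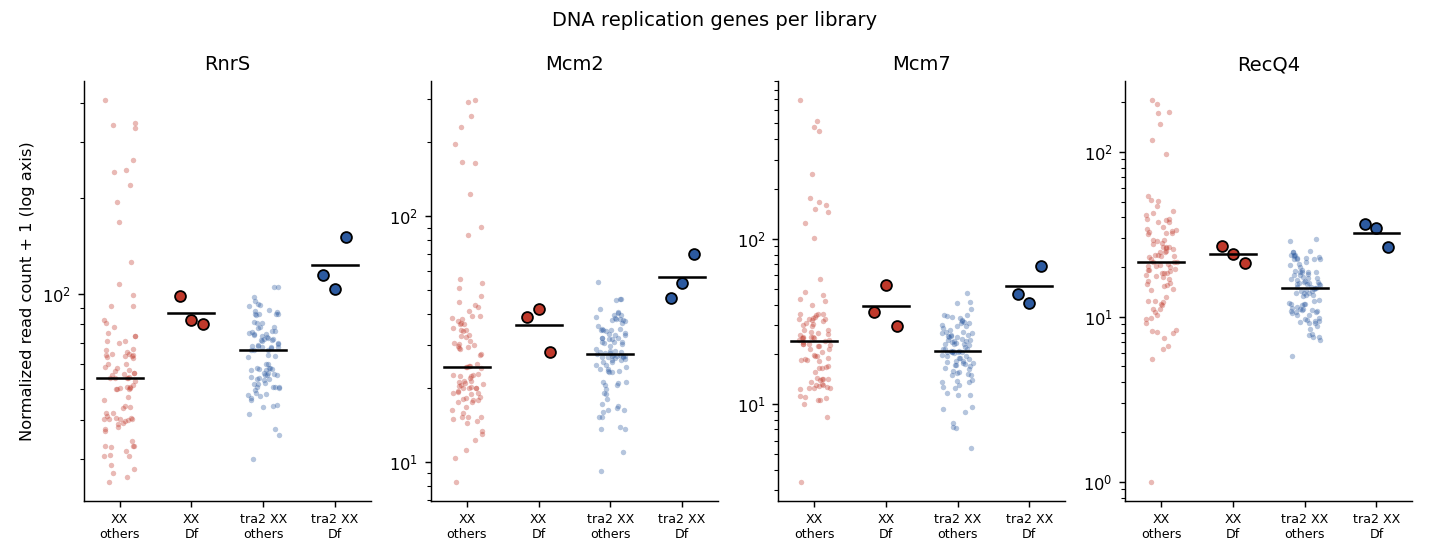
Normalized read counts with 1 added (log y axis) of RnrS, Mcm2, Mcm7 and RecQ4 in each Df(1)ED6443/+ library (large outlined points, bar at the mean) and each other library (small pale points, bar at the median), for XX (red) and tra2 XX (blue). In tra2 XX the Df(1)ED6443/+ points lie at the top of the range, while in XX they lie inside a range with a long upper tail.

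Antennal transcripts were low in the XX libraries. A list of 26 genes of olfactory neurons and support cells of the antenna, drawn up after such genes had been seen among the calls, had 22 of 24 tested called lower in XX (6.61% of all genes), with a median log2 fold change of -4.35 against -0.04 over all genes, and 11 lower with the length covariate (0.641% of all genes). In tra2 XX 0 of 21 were called and the median was 0.29. Since the called genes chose the list, these counts are a description. The summed normalized read counts of the list were 441, 1188 and 574 in the XX Df(1)ED6443/+ libraries against 412 to 13433 (median 5832), and 5 other XX libraries of 4 lines were at or below the highest of them. In tra2 XX the sums were 4784, 7045 and 12432 against 356 to 13805 (median 6385), inside the reference. Obp83a, for an odorant-binding protein, and Os-C, an olfactory-specific gene of the antenna, are given as examples. Obp83a read 5.41, 233 and 8.42 in XX against 2.05 to 3390 (median 1413), and Os-C 4.05, 76.4 and 1.68 against 0 to 1381 (median 765). Replicate 2 was higher than the other replicates for both. The log2 fold changes were -4.09 (adjusted p = 0.00659, SE 0.99) and -4.74 (adjusted p = 0.00269, SE 1.04), and -3.82 (adjusted p = 0.0171) and -4.39 (adjusted p = 0.00883) with the length covariate. Both calls were lost without XX replicate 1 or 3.

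Orco, the co-receptor that most olfactory receptor neurons of antenna and maxillary palp share, read 73.0, 78.1 and 94.3 in XX against 52.4 to 642 (median 330.2). Its log2 fold change was -1.93 (adjusted p = 0.00709, SE 0.47), and -1.36 with the length covariate (adjusted p = 0.0319). The call of Orco was lost with libraries summed by line (adjusted p = 0.127) and without XX replicate 1 or 3. In tra2 XX Orco was at 338, 457 and 556 against a median of 377, a log2 fold change of 0.27 (adjusted p = 1). For genes of the maxillary palp, the other olfactory organ of the head, 0 of 5 tested were called in XX and the median was 0.15. Their sums, 36.5, 46.2 and 57.2, were inside the reference (14.3 to 80.4, median 39.3). In bulk heads, fewer cells of a type and less RNA per cell cannot be told apart. The low antennal sums moved with the XX libraries, and their part in the other XX changes was not tested.

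**Figure D5:**
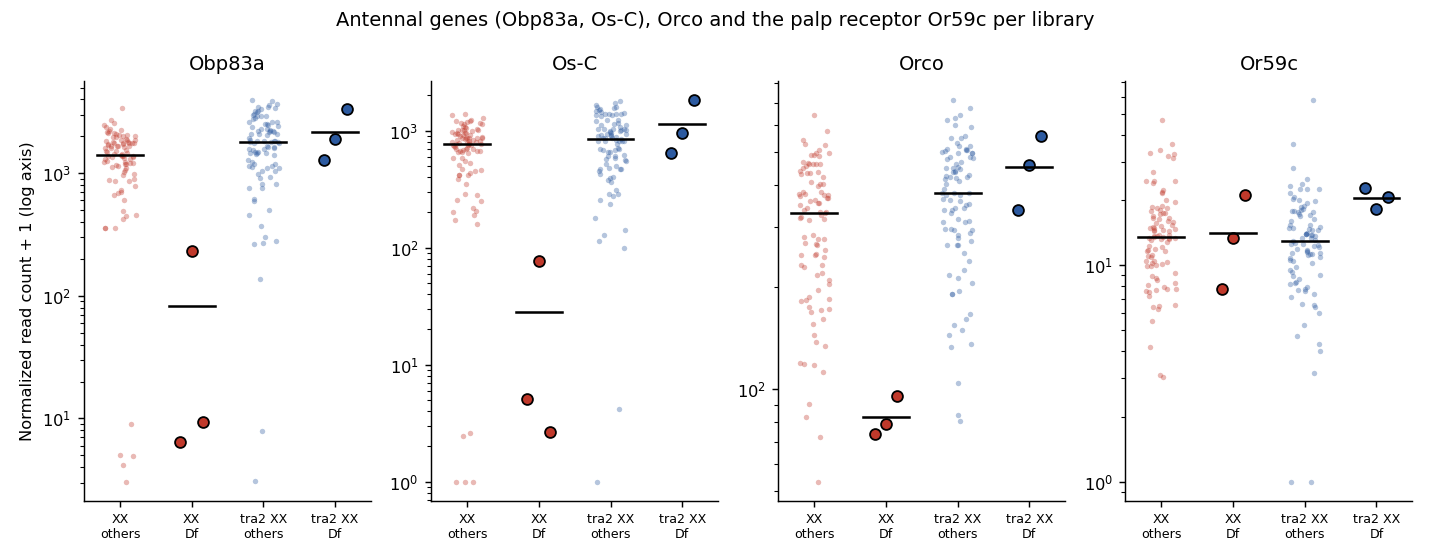
Normalized read counts with 1 added (log y axis) of the antennal genes Obp83a and Os-C, Orco and the palp receptor Or59c, with points, bars and colours as in the plot of replication genes. The XX Df(1)ED6443/+ libraries lie at the low end for the antennal genes and inside the range for the palp receptor. The tra2 XX libraries lie inside the range, except Os-C in replicate 3 (1819 against a highest other value of 1792).

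In the other direction, 3 genes were called higher in XX with libraries summed by line: Def, CG11211 and CG10559, named after their values were seen. With line sums and the length covariate together none passed. Def encodes the antimicrobial peptide defensin. It read 1065, 552 and 557 in XX against 2.37 to 564 (median 42.7), and 1 of 94 reference libraries reached the lowest of them. The log2 fold change was 3.53 (adjusted p = 1.6e-06, SE 0.51), and 3.09 with the length covariate. In tra2 XX Def was at 16.8, 12.7 and 39.3, inside the reference (4.17 to 226, median 24.4), at a log2 fold change of -0.58 (adjusted p = 1). CG11211 read 6046, 4525 and 6240 in XX against 302 to 4897 (median 876), at a log2 fold change of 2.31 (adjusted p = 6.15e-06, SE 0.35). In tra2 XX it was at 754, 823 and 975 against a median of 599.5, at 0.43 (adjusted p = 1). With the length covariate the XX value was 1.84 (adjusted p = 7.13e-05). CG10559 read 23, 33.7 and 33.7 in XX against 3.37 to 25.5 (median 10.1), at a log2 fold change of 1.49 (adjusted p = 0.000357, SE 0.28), and 1.24 with the length covariate. In tra2 XX it was at -0.72 (adjusted p = 1). Its XX call was lost without XX replicate 3 (adjusted p = 0.0597).

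No cytoplasmic ribosomal protein gene, the partners of RpL22 in the ribosome, was called with the deficiency. Of 86 such genes, 78 were tested in XX and 77 in tra2 XX, 0 were called in either, and their median log2 fold changes were 0.10 and 0.06 against -0.04 and -0.02 over all genes. With the length covariate the XX median was -0.40 and 1 gene was called lower, RpL22 itself. Of 8 genes tested that respond in flies with too little ribosomal protein, GstE6 (1.12) and GstD1 (0.79), glutathione S-transferases, were called higher in XX (7.46% of all genes) and Xrp1 (-0.58), a transcription factor of that response, lower (6.61%). None was called in tra2 XX, or in XX with the length covariate. No gene of the lists used here was called in the same direction in both groups.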

How the data were processed

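Heads of XX and tra2 XX flies were profiled by poly-A+ RNA-seq. Per the labels and the submitters' processing notes, the authors used CASAVA 1.8.2, aligned reads with TopHat2 2.0.10 and counted raw read counts per gene with HTSeq 0.5.4p1 (strand setting and treatment of overlapping genes not given in the sources used here). They deposited counts, a normalized signal (counts divided by 1 DESeq2 1.6.3 size factor per library, to which raw over normalized values were constant within a relative spread of 1.7e-15) and FPKM values from Cufflinks 2.1.1. Columns of other groups were not used. Samples were grouped by the labels' genotype and deficiency, and the study's methods describe each set of 3 libraries as biological replicates. No replicates were duplicates by a chi-square test of counts.

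Genes were ordered by the BDGP6 annotation, in which 16815 of 17142 genes were found (2574 on the X). Its build may differ from that of the files, so no coordinates are given. Log2 ratios used the normalized read counts. For the run, log2 ratios less the threshold of -0.5, limited to -1.5 and 0.5, were summed along the X, and the stretch of the lowest sum was taken. Tests used edgeR 4.0.16 (R 4.3.3) on raw counts: filterByExpr, TMM, quasi-likelihood F-test of Df(1)ED6443/+ against all other libraries of the group, two-sided, with Benjamini-Hochberg adjustment over all genes and a threshold of 0.05, and an interaction fit over both groups. Lines that name no gene held 4.52% to 8.53% of the reads of the 6 libraries and were left out. On simulated counts with 197 genes changed by 1 on the log2 scale among 10321, the XX test recovered 60.9% and 9.09% of its calls were false. For tra2 XX (198 of 9479) these were 79.3% and 3.09%. The simulated libraries were drawn independently, with no effect shared within a line and no length relation. These shares therefore do not measure the false share among the calls reported here. Named genes were every run gene above the cut-off, the genes beside its ends, genes called in both groups (up to 12 in each direction), list members called in both groups, paralogs, label checks and up to 3 genes with the largest interaction. Other named genes were chosen after their values were seen. The members and all lists were chosen with earlier results of these data known, and the replication, antenna and palp lists after the values of this comparison were seen. Alternatives were another cut-off, FPKM, other references, DESeq2 1.42.0, RLE size factors, no filter, line sums, a replicate block and each replicate left out. A length covariate, alone and with line sums, was added after seeing the data. A gene with no read was set at a floor of 3 reads per library, which covers counting error only.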

Additional observations from a re-analysis of the deposited data

Results flagged for a closer look

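The change with Df(1)ED6443/+ differed between XX and tra2 XX for 55 genes by the interaction test of edgeR with Benjamini-Hochberg adjustment, of 10423 tested. In 37 of them the change was more positive in tra2 XX and in 18 in XX. Among those named, the largest differences (tra2 XX minus XX, log2) belonged to genes with no read in the 3 XX Df(1)ED6443/+ libraries, so the fitted sizes depend on the prior count and are no bounds. Sfp84E differed by 8.29 (SE 1.78, adjusted p = 0.0154), with 0 in XX against a median of 20.7 (at least 4.3-fold lower) and 10.1, 25.4 and 59.0 in tra2 XX against 15.8. Ir75a, an ionotropic receptor of the antenna, differed by 7.95 (SE 1.77, adjusted p = 0.0187), with 0 in XX against 17.3 (at least 3.6-fold lower) and 18.5, 20.9 and 35.8 in tra2 XX against 14.7. The snoRNA gene snoRNA:Psi28S-3186 differed by 6.70 (SE 1.38, adjusted p = 0.0154), with 0 in XX against 7.80 (at least 1.62-fold lower) and 5.88, 11.8 and 3.47 in tra2 XX against 4.21. These 3 calls were lost without any 1 replicate number.

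Of the antennal genes, Os-C differed by 5.22 (SE 1.10, adjusted p = 0.0154), Obp83a by 4.38 (SE 1.06, adjusted p = 0.0257) and Orco by 2.23 (SE 0.56, adjusted p = 0.0365), all lower in XX only, and 11 of 24 genes of the antennal list passed the interaction test. Def, high in XX only, differed by -4.09 (SE 1.07, adjusted p = 0.0449).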

How the results depend on the processing

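The run kept its direction under every alternative tried. Its median log2 ratio moved by more than the replicate SD with a cut-off of 50 normalized read counts (-0.88 in XX, -0.95 in tra2 XX), with FPKM (-1.19 and -1.10) and, in tra2 XX, against lines with no deficiency (-0.93). Leaving out 1 replicate gave -1.03 to -0.94 in XX and -1.03 to -0.97 in tra2 XX. Outside the run, XX genes called higher (780) numbered 458 with no filter, 3 with line sums, 58 against X deficiency lines, 2302 against lines with no deficiency, 105 with the length covariate, 0 with both line sums and the covariate, and 4 to 240 with 1 replicate left out. XX genes called lower (673) numbered 1137 by DESeq2, 341 with no filter, 17 with line sums, 23 against X deficiency lines, 2397 against lines with no deficiency, 48 with the covariate, 15 with line sums and covariate, and 1 to 77 with 1 replicate left out. In tra2 XX, genes called higher (4) numbered 2 with line sums, 1201 against lines with no deficiency, 8 with the covariate, and 1 to 3 with 1 replicate left out. Genes called lower (0) numbered 1 (CngB) against X deficiency lines and 1187 against lines with no deficiency. Genes called higher in both groups (0) numbered 1, CG3021, with RLE and with DESeq2, and 602 against lines with no deficiency. Genes called lower in both (0) numbered 665 against those lines. The interaction count of 55 was 9 with the covariate, 13 with line sums and 0 to 6 with 1 replicate left out. The direction turned for RnrS in XX against X deficiency lines (-0.16). It also turned against lines with no deficiency, with the covariate, and with line sums and covariate, for Mcm2 (0.92, 0.28 and 1.04), Mcm7 (0.91, 0.41 and 1.33) and RecQ4 (0.18, 0.26 and 0.93) in XX. In tra2 XX Os-C and Obp83a turned against lines with no deficiency (-0.21 and -0.16) and without replicate 3, and with 1 replicate left out ranged from -0.08 to 0.73 and from -0.20 to 0.53. Of 621 alternatives for 53 values of named genes, 508 kept direction and side of the threshold, 91 lost the call, 8 gained it and 14 turned. The cause of these shifts was not tested.

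Replicate numbers did not pair XX with tra2 XX libraries: deviations of libraries of the same number correlated at 0.184, -0.211 and -0.101. The highest correlations with another number were 0.240, 0.285 and 0.097. Within a group, the deviations of Df(1)ED6443/+ libraries correlated with those of the other lines' same number at 0.040, 0.189 and 0.091 in XX and at 0.036, 0.205 and 0.229 in tra2 XX, not above 0.1 for every number. The highest value with another number was 0.063, -0.101 and 0.090 in XX and 0.186, -0.001 and -0.020 in tra2 XX. The same number thus stood clearly higher for XX replicate 2 and tra2 XX replicates 2 and 3. With the replicate block, 787 genes were called higher and 690 lower in XX, 8 higher in tra2 XX, 1 (CG3021) higher in both, and the interaction count was 55.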

Other observations

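Several gene groups of the head had calls in XX and none in tra2 XX. Of all genes tested, 7.46% were called higher and 6.61% lower in XX, and 0.0419% and 0.188% in tra2 XX. Of 5 genes of sex determination, 3 were called lower in XX, Sxl (log2 fold change -1.12), dsx (-0.81) and tra2 (-0.45), and 0 in tra2 XX. None of the 3 passed the interaction test (adjusted p = 0.209, 0.114 and 0.323 in that order). The list median was -0.45 in XX and -0.10 in tra2 XX. For the circadian clock, 1 of 10 genes was called higher and 4 lower in XX (median -0.42), and 0 of 10 in tra2 XX (median -0.08). For phototransduction, 4 of 19 were called higher and 2 lower in XX (median 0.12), and 0 of 19 in tra2 XX (median -0.18). Of 13 antimicrobial peptide genes tested, 2 were called higher in XX, Def and Drsl5, and 0 in tra2 XX. Of these genes 3 were above 0 in XX, with a list median of the fitted change of -1.72 in XX and -1.18 in tra2 XX. As a log2 ratio to the reference median, the list median was 0.36 in XX (8 genes above the cut-off) and -0.09 in tra2 XX (11 genes). The direction in XX and the size in tra2 XX therefore depended on the measure. With the length covariate Drsl5 was not called (adjusted p = 0.313). Over all genes tested the median fitted change was -0.04 in XX and -0.02 in tra2 XX. With the length covariate, none of these calls in sex determination, clock and phototransduction genes remained in XX.

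Heat shock genes (13 tested in each group), Turandot stress genes (4 in each) and genes of dosage compensation (5 in each, without roX1 and roX2) had 0 calls in both groups. The roX genes, tested apart from that list, were not called in either group. In XX roX1 read 8.11, 7.1 and 8.42 against 6.38 to 1275.1 (median 31.4), with a mean below all 32 other lines. Its fitted log2 fold change was -3.20 in XX (edgeR adjusted p = 0.103) and -1.56 in tra2 XX. Of 12 eye pigment genes, 1 was called higher in XX, where 7.46% of all genes tested were, and 0 in tra2 XX (0.0419%). Against the same shares, 1 of 4 muscle genes was called higher in XX and 0 of 5 in tra2 XX, and among gut genes 0 of 3 and 0 of 2.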
